A study of Mus musculus with 9 samples.

Results

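The 10 genes described here, Atf4, Ddit3 (which encodes CHOP), Atf3, Nupr1, Trib3, Ppp1r15a, Chac1, Sesn2, Ddit4 and Gdf15, belong to the ATF4-CHOP branch of the cellular stress response. They were taken by gene name from the deposited table, where they are 10 of 28379 genes. They were selected on earlier results of these data, in which several of them stood out between the vitamin group and RANKL, so their values in that comparison are a description without a test. All 10 passed the filter on low counts that left 17002 genes for testing. The table holds 11 rows with these symbols, and the additional Ddit3 row, at 0 or 1 count per library, was not tested.

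The study asked how vitamins D and K together act on osteoclast formation. Bone marrow-derived macrophages (BMDMs), the precursors of osteoclasts, were taken from C57BL/6 mice (10-week-old C57BL/6J in the study's methods), and their RNA was sequenced in 3 groups of 3 libraries. All groups received 20 ng/ml M-CSF, the factor that keeps macrophages alive. The PBS group was given nothing more. The RANKL group was given 100 ng/ml RANKL, the cytokine that starts osteoclast formation, and the same RANKL was combined with both vitamins in the RANKL + Vit D+K group, each for 48 h. Vitamin D was calcitriol, its active form, at 1000 nM. Vitamin K was MK4 (menaquinone-4), at 20 µM in the sample labels and at 40 µM in the study's methods. The vitamins were sequenced only in combination, so a share of either one cannot be told apart. The methods describe RNA that was pooled, and nothing says that the libraries of a group came from separate mice, so the p-values measure the spread between these libraries, which may be technical.

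In the integrated stress response, kinases that sense misfolded protein, amino acid shortage, viral RNA or heme deficiency phosphorylate the translation factor eIF2alpha. Most protein synthesis then slows, while ATF4, a basic leucine zipper (bZIP) transcription factor, is translated more and switches on genes for amino acid supply and for stress, among them CHOP. CHOP and ATF4 together induce genes that restore translation or, under lasting stress, favour cell death.

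Total counts per library were between 65915112 and 68229647, so depth hardly differed, and 3 counts, the least taken as above 0, made up no more than 4.55e-06% of any library, a limit that covers counting error only. The treatment markers followed the labels: Cyp24a1, the vitamin D-degrading enzyme that calcitriol induces, had 39 to 113 counts in the RANKL + Vit D+K libraries and 0 to 3 in the others, and Acp5, the osteoclast phosphatase TRAP, averaged 4.20 FPKM in PBS, 218 in RANKL and 3.48 in RANKL + Vit D+K. FPKM is the fragment count per length of transcript and per size of library. Library 2 of the RANKL + Vit D+K group stood apart: its correlation over genes with libraries 1 and 3 was 0.971 and 0.980, against 0.994 between those 2. With RANKL library 2 it was 0.977, higher than with vitamin library 1. The values of the 10 genes are therefore given by library, as are those of several listed genes. The 8 macrophage markers were all present, and their summed level was 45080 to 53920 CPM (counts scaled to library size) in PBS, 25330 to 39650 in RANKL and 9353 to 18420 in RANKL + Vit D+K. Most of that sum was Lyz2, and by gene 5 of the 8 were called lower and 1, Cd68, higher (552 to 718 FPKM) in RANKL + Vit D+K than in RANKL. The 8 osteoclast markers summed to 111 to 124, 916 to 1546 and 181 to 257 CPM, and the 8 neutrophil markers to 10.5 to 126, 10.8 to 134 and 0.515 to 1.35 CPM, with 5 of them at 0 in every RANKL + Vit D+K library. The part of these shifts in the results that follow was not tested, and in such bulk RNA a change in the number of cells of a type and a change in RNA per cell cannot be told apart.

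The DNA next to these genes was searched for the sites that ATF4 and CHOP are known to use. RefSeq promoter windows of GRCm38.p6, from 250 bases before to 50 bases after the annotated start, were present for all 10 genes, 11 windows in all. The C/EBP-ATF composite element, bound by ATF4 or CHOP with a C/EBP partner, was searched as TGATGNAA on both strands, where N is any base. It was found in the windows of 4 of the 10 genes, against 3.97% of all 32851 windows. Distances are counted from the RefSeq start of each window, which can differ from the gene limits of the deposited table given further on. The Trib3 element lies outside those limits, beyond 152344032. The Atf3 and Nupr1 stretches lie inside them, so their windows are at an internal start. Other starts of Atf3 and Nupr1 were not searched. The stretches with the element in capitals, read 5′ to 3′ on the strand of the gene, where it appears in the reverse orientation, are these.
Chac1, chr2:119351019-119351086, plus strand, element 193 bases before the start: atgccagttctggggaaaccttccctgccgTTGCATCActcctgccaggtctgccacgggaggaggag
Atf3, chr1:191183406-191183473, minus strand, element 110 bases before the start: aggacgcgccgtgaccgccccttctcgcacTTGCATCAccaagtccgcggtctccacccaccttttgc
Nupr1, chr7:126625543-126625610, minus strand, element 110 bases before the start: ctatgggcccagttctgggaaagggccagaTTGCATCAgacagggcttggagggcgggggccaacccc
Trib3, chr2:152344028-152344057, minus strand, element 14 bases after the start: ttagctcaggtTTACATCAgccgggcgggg

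Ppp1r15a carried instead a full cAMP response element, TGACGTCA, which pairs of ATF and CREB family proteins bind and which was present in 1.79% of all windows. No other of the 10 genes had it.
Ppp1r15a, chr7:45526269-45526310, minus strand, element 12 bases before the start: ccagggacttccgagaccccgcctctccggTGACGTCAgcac
The endoplasmic reticulum stress element of the ATF6 branch was in no window of the 10 genes and in 0.119% of all windows. Atf4, Ddit3, Sesn2, Ddit4 and Gdf15 held none of the 3 motifs within these windows, which cover only a short part of each promoter. A match is a description of the letters and not a measured binding site. Of the genes for amino acid supply listed further on, 9 of the 26 with a window held the C/EBP-ATF element, among them Asns, Slc7a11, Slc1a4 and Pck2.

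Together the 10 genes took 0.0367% to 0.0382% of all counts in the PBS libraries, 0.0250% to 0.0281% in the RANKL libraries, and 0.396%, 0.172% and 0.342% in RANKL + Vit D+K libraries 1, 2 and 3. Every one of the 10 had a higher mean FPKM in RANKL + Vit D+K than in both other groups. In 9 of the 10 the 3 vitamin libraries lay above every RANKL library, and 17% of all genes tested did so. Ddit4 was the exception. The plot of FPKM by library shows these levels.

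**Figure D1:**
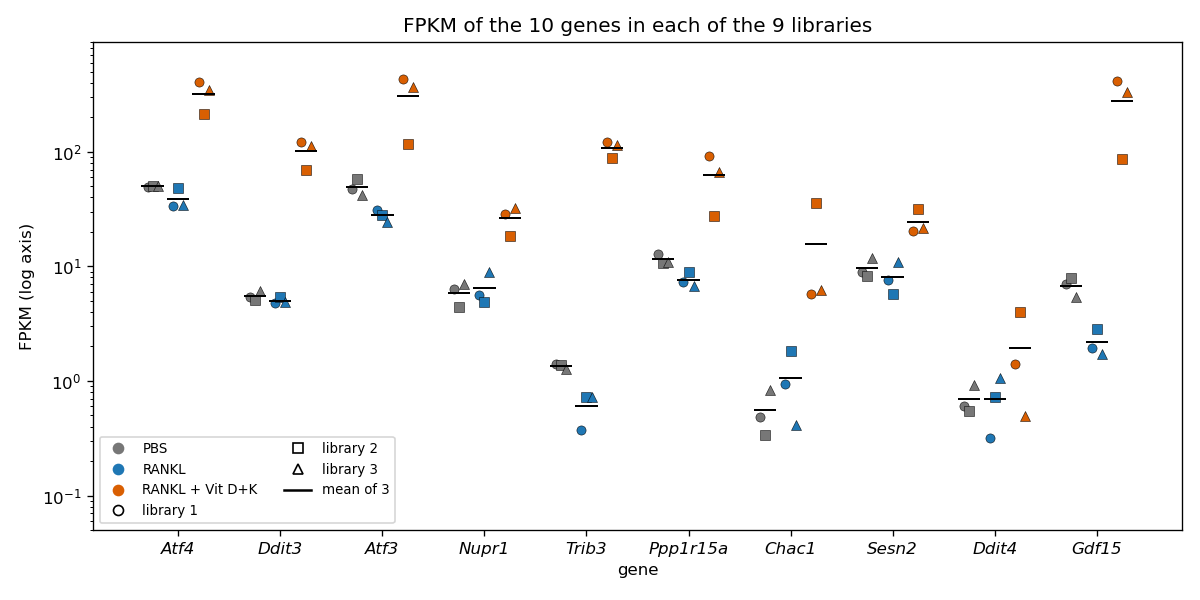
FPKM (log axis) of each of the 10 genes in the 9 libraries, coloured by group, with a marker shape for the library number and a bar at the mean of 3 libraries. The RANKL + Vit D+K libraries lie above the others for every gene but Ddit4, and library 2 of that group (square) is its lowest for 7 genes and its highest for Chac1, Sesn2 and Ddit4.

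Atf4, the factor that gives the pathway its name, lies on chromosome 15 (80255184 to 80257541, plus strand, GRCm38). Its FPKM was 49.7, 50.5 and 49.9 in PBS libraries 1, 2 and 3, then 33.9, 48.0 and 34.1 in RANKL, and 408, 215 and 343 in RANKL + Vit D+K. The vitamin libraries were above all others without overlap, and each RANKL library was below each PBS library. Fitted by edgeR, Atf4 was 9.47-fold higher in RANKL + Vit D+K than in RANKL (log2 fold change 3.24, SE 0.27). ATF4 is controlled largely at translation, so the mRNA values here say nothing of its protein.

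Ddit3 encodes CHOP, a bZIP factor that ATF4 induces and that is nearly silent in unstressed cells. Its position is chromosome 10, 127290774 to 127296288, plus strand. Its FPKM was 5.43, 5.06 and 6.14 in PBS, 4.84, 5.37 and 4.88 in RANKL, and 122, 68.7 and 113 in RANKL + Vit D+K. PBS and RANKL overlapped, and the vitamin libraries stood far above both, 22.7-fold over RANKL in the fit (log2 fold change 4.50, SE 0.27). The gene overlaps 68 bases of Mars1 on the opposite strand, the methionyl-tRNA synthetase gene, which averaged 15.7 FPKM in RANKL and 49.8 in RANKL + Vit D+K. The sources used here do not state whether counting used the strand, so reads in those bases could belong to either gene.

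Atf3 is a stress-induced bZIP factor that can repress as well as activate. It lies on chromosome 1 (191170296 to 191218039, minus strand). Its FPKM was 47.7, 57.5 and 41.6 in PBS, 31.1, 28.1 and 24.2 in RANKL, and 427, 117 and 370 in RANKL + Vit D+K. The 3 groups did not overlap, with RANKL lowest, and vitamin library 2 held less than either other vitamin library. The fitted difference between RANKL + Vit D+K and RANKL was 12.5-fold (log2 fold change 3.65, SE 0.46).

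Nupr1 encodes a small nuclear cofactor of stress-responsive transcription. On chromosome 7 (126623249 to 126630861, minus strand), it had an FPKM of 6.37, 4.41 and 6.95 in PBS, 5.59, 4.85 and 8.95 in RANKL, and 28.9, 18.5 and 32.5 in RANKL + Vit D+K. PBS and RANKL were interleaved, and the vitamin libraries lay above both at 4.59-fold over RANKL (log2 fold change 2.20, SE 0.34).

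The feedback genes of the pathway included the one with the largest fold. Trib3 encodes a pseudokinase that binds ATF4 and CHOP and restrains them. The gene is on chromosome 2 (152337422 to 152344032, minus strand). Its FPKM was 1.41, 1.39 and 1.27 in PBS, 0.375, 0.725 and 0.721 in RANKL, and 123, 87.4 and 114 in RANKL + Vit D+K. The 3 groups were fully separated in the order RANKL, PBS, RANKL + Vit D+K. The fitted difference over RANKL was 197-fold (log2 fold change 7.62, SE 0.32), which placed Trib3 at rank 12 from the highest among the 17002 genes.

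Ppp1r15a encodes GADD34, the inducible phosphatase subunit that removes the phosphate from eIF2alpha and so ends the response. It is also on chromosome 7 (45522916 to 45526268, minus strand). Its FPKM was 12.9, 10.7 and 10.9 in PBS, 7.36, 8.87 and 6.71 in RANKL, and 92.6, 27.5 and 66.5 in RANKL + Vit D+K. Again RANKL was lowest and the groups did not overlap, and vitamin library 2 was well below libraries 1 and 3. The fit gave a 9.34-fold difference over RANKL (log2 fold change 3.22, SE 0.42). Its constitutive counterpart Ppp1r15b was 1.82-fold higher in the same comparison.

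Chac1, Sesn2 and Ddit4 are effectors of the pathway. Chac1 encodes an enzyme that breaks down glutathione, and it lies on chromosome 2 (119351229 to 119354381, plus strand). Its FPKM was 0.481, 0.336 and 0.841 in PBS, 0.941, 1.83 and 0.410 in RANKL, and 5.69, 35.5 and 6.26 in RANKL + Vit D+K. The vitamin libraries were above all others, but library 2 alone held 5.94 times the mean of libraries 1 and 3. The log2 fold change over RANKL was 3.98 (SE 0.80) with all libraries and 2.73 (SE 0.55) without vitamin library 2, and it was 4.57 without RANKL library 2, the highest of its group.

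Sesn2 encodes a leucine sensor that holds back mTORC1, the kinase complex that drives growth. The gene spans chromosome 4 (132492032 to 132510501, minus strand), where it shares 6089 bases with the transcript Gm12981 on the same strand, itself at 0.437 FPKM or less on average in each group. Its FPKM was 8.97, 8.27 and 11.8 in PBS, 7.61, 5.72 and 11.02 in RANKL, and 20.2, 31.5 and 21.4 in RANKL + Vit D+K. The vitamin libraries were above the rest, by 3.26-fold over RANKL (log2 fold change 1.71, SE 0.27), the smallest of the separated differences.

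Ddit4 encodes REDD1, another inhibitor of mTORC1 that hypoxia and glucocorticoids also induce. From this short gene on chromosome 10 (59949669 to 59951834, minus strand) the FPKM was 0.610, 0.546 and 0.920 in PBS, 0.317, 0.724 and 1.06 in RANKL, and 1.42, 3.96 and 0.490 in RANKL + Vit D+K. Vitamin library 3 lay among the libraries of the other groups, so the groups overlapped. The log2 fold change over RANKL was 1.56 (SE 0.67) with all libraries and 0.68 (SE 0.59) without library 2.

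Gdf15 encodes a secreted stress hormone of the TGF-beta superfamily that acts on the hindbrain to reduce food intake. The gene is on chromosome 8 (70629393 to 70632456, minus strand). Its FPKM was 7.004, 7.92 and 5.41 in PBS, 1.94, 2.87 and 1.72 in RANKL, and 416, 86.8 and 333 in RANKL + Vit D+K. The groups were fully separated in the same order as for Trib3. The fitted difference over RANKL was 148-fold (log2 fold change 7.21, SE 0.65), at rank 22 from the highest among all genes, and each vitamin library by itself was at least 39.9 times the RANKL mean.

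In the comparison of RANKL + Vit D+K with RANKL, 9 of the 10 genes were called higher at an adjusted p under 0.05 by edgeR, where 16.4% of all genes were called higher and 17.2% lower. The genes were chosen with this comparison known, so nothing is read from that count. The median log2 fold change of the 10 genes was 3.45 and that of all genes tested was -0.04. Against PBS, with which the comparison shares the vitamin libraries, 9 of 10 were called higher as well, where 19.8% of all genes were. The log2 fold changes ran from 1.33 for Sesn2 to 6.34 for Trib3, with Ddit4 at 1.46 and overlapping. Ddit4 was at 0.57 without vitamin library 2 and at 1.96 without vitamin library 3.

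The order of the genes by level changed with the treatment. In PBS, Atf4 at 50.0 ± 0.44 FPKM (SD, n = 3) and Atf3 at 48.9 ± 8.0 were the highest and did not differ beyond their spread. Trib3 at 1.36 ± 0.07, Ddit4 at 0.692 ± 0.20 and Chac1 at 0.553 ± 0.26 were the lowest, and the last 2 overlapped. In RANKL, Trib3 was the lowest of all at 0.607 ± 0.20, within the spread of Ddit4 at 0.700 ± 0.37. In RANKL + Vit D+K, Atf4 at 322 ± 98, Atf3 at 305 ± 165 and Gdf15 at 279 ± 171 overlapped at the top, followed by Trib3 at 108 ± 18 and Ddit3 at 101 ± 29, which also overlapped. Ppp1r15a at 62.2 ± 33, Nupr1 at 26.6 ± 7.3, Sesn2 at 24.4 ± 6.2 and Chac1 at 15.8 ± 17 came next, and Ddit4 at 1.96 ± 1.8 was last.

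RANKL alone was compared with PBS to see whether osteoclast induction moved these genes by itself. This contrast shares its RANKL libraries with the one on which the genes were chosen, and a low value in RANKL raises the vitamin difference, so it is not independent of the choice. Trib3 fell with RANKL, by 1.28 on the log2 scale (SE 0.26, edgeR quasi-likelihood test with Benjamini-Hochberg adjusted p = 0.0301). It was the only gene of the 10 to pass, and 1.26% of all genes were called lower and 2.35% higher. Gdf15 had the largest difference, -1.77 (SE 0.52), and did not pass (edgeR, Benjamini-Hochberg adjusted p = 0.0995). For Atf3 the log2 fold change was -0.94 (SE 0.42), for Ppp1r15a -0.72 (SE 0.39) and for Atf4 -0.51 (SE 0.25), with edgeR's Benjamini-Hochberg adjusted p at 0.277, 0.372 and 0.329. All 3 RANKL libraries lay below all 3 PBS libraries for these 4 genes and Trib3, and 12.9% of all genes did so. Ddit3 (-0.27), Sesn2 (-0.37), Ddit4 (-0.11), Nupr1 (0.01) and Chac1 (0.77, SE 0.74) overlapped between the groups.

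How many of the 10 passed here depended on the libraries in the model. Without vitamin library 2, 5 genes were called lower with RANKL, namely Trib3, Gdf15, Atf3, Ppp1r15a and Atf4, with Benjamini-Hochberg adjusted p in edgeR of 0.00817, 0.00205, 0.006, 0.022 and 0.039. In a model of the PBS and RANKL libraries alone, 4 were called, the same without Atf4. Calls rose over all genes as well, to 931 lower of 17806 tested without vitamin library 2 and to 702 of 16348 with the PBS and RANKL libraries alone, from 214 of 17002. With any single PBS or RANKL library left out, or vitamin library 3, none of the 10 was called and 30 to 115 of all genes were called lower, Trib3 having an adjusted p between 0.0511 and 0.124 in edgeR after Benjamini-Hochberg adjustment.

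**Figure D2:**
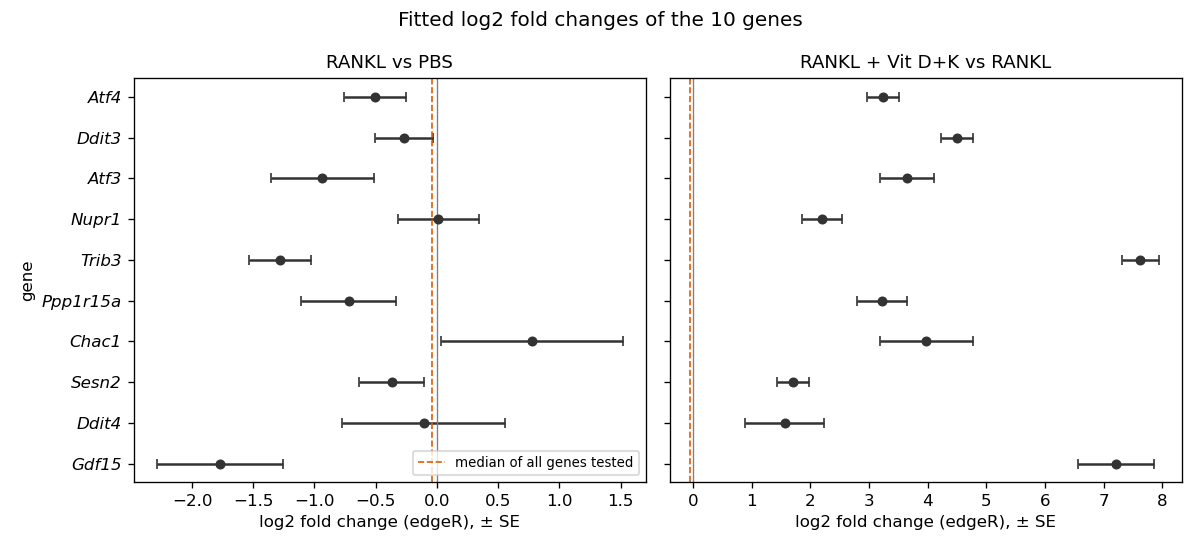
Log2 fold changes of the 10 genes fitted by edgeR, with bars of 1 standard error, for RANKL against PBS on the left and RANKL + Vit D+K against RANKL on the right (the axes differ), and a dashed line at the median of all genes tested. Trib3 at -1.28 and Gdf15 at -1.77 lie lowest on the left, and the same genes, at 7.62 and 7.21, lie highest on the right.

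The vitamin libraries did not move all 10 genes by a common factor. Library 2 was the lowest of the 3 for Gdf15, Atf3, Ppp1r15a, Atf4, Ddit3, Nupr1 and Trib3, and the highest for Chac1, Ddit4 and Sesn2. Gdf15 was 4.31 times as high in the mean of libraries 1 and 3 as in library 2, Atf3 3.41 times, Ppp1r15a 2.89 times, Atf4 1.74 times and Trib3 1.35 times. In the other direction, library 2 held 5.94 times the mean of the other two for Chac1, 4.15 times for Ddit4 and 1.51 times for Sesn2. Over the 12461 genes with a mean of at least 1 CPM the median of this ratio was 1.18, with 4.08% of genes at least 2-fold lower in library 2 and 14.7% at least 2-fold higher. The same ratio had a median of 1.16 over the 8 macrophage markers, of which 4 were highest in library 2 and 1 lowest. Of the 8 osteoclast markers, 6 were highest in library 2 and 1 lowest, and Calcr was 0 in all 3 libraries. The median ratio without Calcr was 4.62, but some markers were near 0, with Oscar at most 0.063 FPKM and Ocstamp at most 0.11. Summed, the 8 osteoclast markers had 257, 207 and 181 CPM in vitamin libraries 1, 2 and 3. The part of these marker differences in the stress gene values was not tested. The difference between libraries of the same group is a description and has no replicate.

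**Figure D3:**
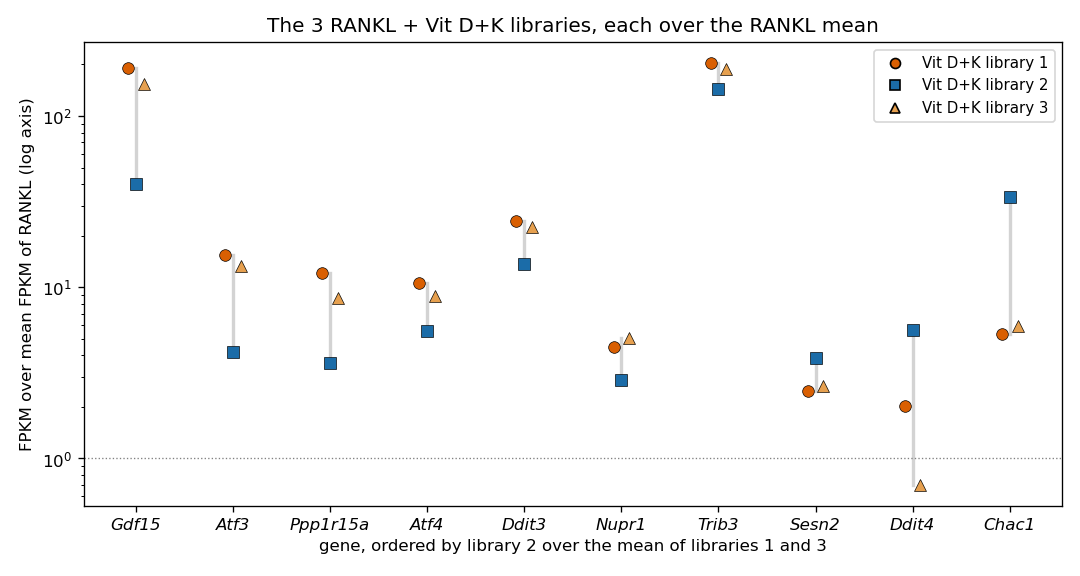
FPKM of the 10 genes in each RANKL + Vit D+K library, divided by the mean of the 3 RANKL libraries (log axis), with genes ordered by library 2 over the mean of libraries 1 and 3 and a dotted line at a ratio of 1. Library 2 is lowest on the left, for Gdf15 at 39.9 times the RANKL mean, and highest on the right, for Chac1 at 33.4 times.

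The gene lists that follow were, like the 10 genes, chosen with earlier results of these data known. Their values in the vitamin comparison are therefore a description. Of the 17 listed genes for eIF2 kinases and eIF2 control, 7 rose and 3 fell in RANKL + Vit D+K against RANKL, with a median log2 fold change of 0.27. Of all genes 16.4% rose and 17.2% fell, so the share that fell was near that of all genes. Of the 4 eIF2alpha kinases, Eif2ak4 (GCN2, the sensor of amino acid shortage) rose by 0.98 (SE 0.22). The other kinases fell on the log2 scale. Eif2ak2 (PKR) fell by 1.60 (SE 0.37), Eif2ak3 (PERK, the sensor in the endoplasmic reticulum) by 0.40 (SE 0.11) and Eif2ak1 (HRI) by 0.33 (SE 0.095). Eif2s2, a subunit of eIF2, rose by 1.46. Eif2ak2 had 1.79, 6.75 and 2.35 FPKM in vitamin libraries 1, 2 and 3. Impact, which restrains GCN2, rose by 3.05, with 89.6, 18.7 and 72.2 FPKM in vitamin libraries 1, 2 and 3. Kinase activity depends on phosphorylation, which RNA does not show. The count of 10 called genes was 5 without RANKL library 1 and 14 without vitamin library 2. None of the 17 was called between RANKL and PBS by edgeR, and 5 had an unadjusted p under 0.05.

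Among 11 tested bZIP genes whose proteins can pair with ATF4, CHOP or ATF3, 4 rose and 3 fell with the vitamins, against 16.4% and 17.2% of all genes, with a median log2 fold change of 0.03. Atf5, a relative of Atf4, rose by 2.46 (SE 0.23), Jun by 2.34, Cebpb by 1.46 and Cebpg by 0.97. Fosl2 fell from 14.99 to 3.47 FPKM, Jdp2 by 1.84 and Cebpa by 0.49 on the log2 scale. RANKL against PBS, which shares the RANKL libraries, called 1 of the 11 higher and 2 lower, where 2.35% and 1.26% of all genes were. Jdp2, which osteoclast formation needs, rose by 3.36 with RANKL (SE 0.41, edgeR, Benjamini-Hochberg adjusted p = 0.00502), and Atf5 fell by 1.25 (SE 0.22, edgeR, Benjamini-Hochberg adjusted p = 0.0193). Cebpa, which was lower with the vitamins, also fell with RANKL, by 0.95 (SE 0.16, edgeR, Benjamini-Hochberg adjusted p = 0.0173). Fos, an AP-1 subunit, did not pass in the vitamin comparison and had 0.640, 59.7 and 0.404 FPKM in vitamin libraries 1, 2 and 3, so that library 2 alone held it at a level near the RANKL mean of 77.8.

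The amino acid arm of the ATF4 program was higher almost throughout. Of 34 tested genes for amino acid synthesis, transport and charging of tRNA, 31 rose and 0 fell in RANKL + Vit D+K against RANKL, where 16.4% of all genes rose and 17.2% fell, and their median log2 fold change was 2.05. Slc1a4, a carrier of neutral amino acids, rose by 5.09 (SE 0.41). Slc7a11, the cystine importer, rose by 4.46 (SE 0.46), Phgdh, which opens serine synthesis, by 4.35 (SE 0.50), and Asns, asparagine synthetase, by 4.09 (SE 0.46). The 10 tRNA synthetase genes of the list all rose, from 1.303 for Nars to 2.60 for Aars. The 3 tested genes that did not pass were Pycr1, Slc7a3 and Slc1a5. In RANKL against PBS, where 2.35% of all genes rose and 1.26% fell, 2 genes of the list rose, among them Aldh1l2, and 2 fell, among them the glycine transporter gene Slc6a9, by 1.74 (SE 0.19, edgeR, Benjamini-Hochberg adjusted p = 0.00228).

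In the amino acid genes library 2 was both above and below the others. Library 2 over the mean of libraries 1 and 3 had a median of 1.11 over the 34 genes, of which 21 were highest and 9 lowest in library 2. For the 10 stress genes the median was 0.594. Within the list Psat1, of serine synthesis, was 2.28 times as high in library 2 as in the other two, while Slc3a2, the heavy chain shared by several amino acid carriers, was 2.07 times as high in libraries 1 and 3. No test was made of this difference.

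Of 12 tested stress and death targets of ATF4 and CHOP outside the 10, 6 rose and 2 fell, where 16.4% of all genes rose and 17.2% fell, so the share that fell was near that of all genes, with a median log2 fold change of 1.10. Vegfa, the vascular growth factor, rose by 2.75 and Sqstm1, the autophagy receptor p62, by 2.74. Ero1l, the oxidase that CHOP induces in the endoplasmic reticulum, rose by 2.45, and Bbc3, which encodes the death-promoting protein PUMA, by 2.01. Bcl2l11, which encodes the death-promoting protein BIM, fell by 1.16 (SE 0.14), and the autophagosome gene Map1lc3b fell by 0.47. Library 2 was the lowest vitamin library for 9 of the 12, with Vegfa at 89.8, 27.4 and 75.3 FPKM in libraries 1, 2 and 3, Sqstm1 at 1288, 502 and 1008, and Bbc3 at 27.6, 6.72 and 22.2. None of the 12 was called between RANKL and PBS by edgeR, and 2 had an unadjusted p under 0.05.

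The ATF6 and XBP1 arms act beside the PERK arm when proteins misfold in the endoplasmic reticulum. Of 21 genes, 13 rose and 0 fell, beside 16.4% and 17.2% of all genes, and the median log2 fold change was 0.50. The median was 2.05 for amino acid supply, 1.10 for the stress and death targets and 0.27 for eIF2 control. The lists were not tested against each other. Ern1 (the sensor IRE1alpha) rose by 1.87, Dnajb9 by 1.52, Sel1l by 1.41 and Atf6 itself by 1.38. Library 2 was the lowest vitamin library for 15 of the 21 and the highest for 6, with a median ratio to the mean of libraries 1 and 3 of 0.876, and Dnajb9 had 47.4, 17.3 and 44.2 FPKM in libraries 1, 2 and 3. The chaperone gene Hspa5 (BiP) rose by 1.36 (SE 0.25), from 141 to 320 FPKM. Xbp1 and Creld2 were among the 8 that did not pass, at log2 fold changes of 0.40 and 0.19. Of the 18 genes of this list with a promoter window, 8 held the endoplasmic reticulum stress element, Hspa5 among them. With RANKL against PBS, Calr rose by 0.84 (SE 0.12, edgeR, Benjamini-Hochberg adjusted p = 0.00834).

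Pathways that also feed some of the 10 genes were examined for comparison. Among 13 tested p53 targets, 5 rose and 3 fell with the vitamins, with a median log2 fold change of 0.11, beside 16.4% and 17.2% of all genes. Plk2 rose by 6.16, Mdm2 by 1.55, Cdkn1a (p21) by 0.80 and Aen by 0.65. Plk2 had 297 and 215 FPKM in vitamin libraries 1 and 3 and 52.7 in library 2, against a RANKL mean of 3.04. Sesn1, the p53-driven relative of Sesn2, fell by 3.14 (SE 0.30), from 30.2 FPKM in RANKL to 3.16, while Sesn2 was higher. Ei24 and Ccng1 also fell. The 8 calls became 4 without RANKL library 1.

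Among 12 targets of the oxidant sensor NRF2, 9 rose and 1 fell with the vitamins (16.4% and 17.2% of all genes), with a median of 0.81. Slc7a11, which also stands in the amino acid list, rose by 4.46, Srxn1 by 1.51, Txnrd1 by 1.36 and Gclc by 1.15, and G6pdx fell by 0.65. RANKL against PBS called 7 of the 12 lower and 0 higher (1.26% and 2.35% of all genes), among the 7 Osgin1 by 1.53 and Gclm by 1.24 (edgeR, Benjamini-Hochberg adjusted p = 0.00704 and 0.00129). In RANKL + Vit D+K against PBS, 2 of the 12 were called higher and 3 lower, with a median of 0.03, near the shares of all genes, 19.8% higher and 21% lower. Among 9 hypoxia targets, 4 rose and 0 fell with the vitamins (16.4% and 17.2% of all genes), with a median of 1.13: Vegfa and Ndrg1, which also stand in the stress list, with Slc2a1 by 1.28 and P4ha1 by 1.14. Slc2a1 fell by 0.80 with RANKL against PBS. Vitamin library 2 was the highest of its group for 7 of the 9 hypoxia targets and the lowest for 2. Its median ratio to the mean of libraries 1 and 3 was 1.55.

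**Figure D4:**
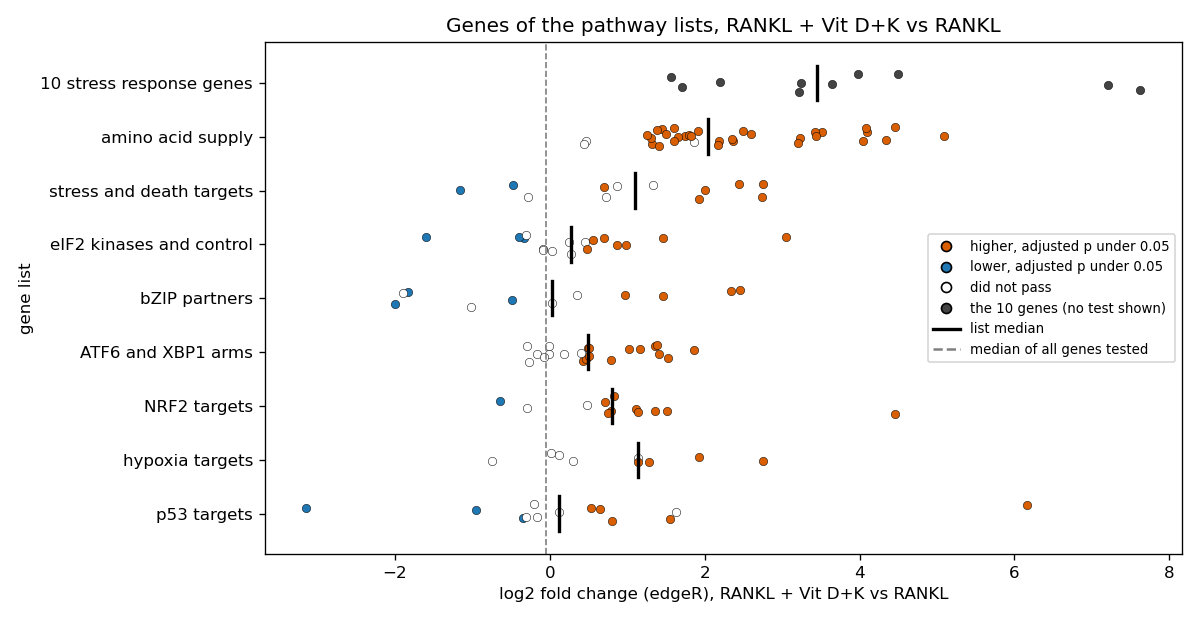
Log2 fold changes (edgeR) between RANKL + Vit D+K and RANKL for each tested gene of the lists, 1 row per list and 1 point per gene. Points are filled where the adjusted p was under 0.05, except in the row of the 10 genes. There all points are dark grey and no test is shown. A bar marks the list median and a dashed line the median of all genes tested (-0.04). The medians are 3.45 for the 10 genes, 2.05 for amino acid supply, 0.50 for the ATF6 and XBP1 arms and 0.27 for eIF2 control.

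The genes whose profile over the 9 libraries was most like that of the 10 were sought among 12363 genes outside the lists with a mean of at least 1 CPM, by Pearson correlation of log2(CPM + 1) with the mean standardized level of the 10. Among the closest were Arpc5l (r = 0.995), Abhd2 (0.994), Slc25a33 (0.989), Tmed2 (0.987) and Soat2 (0.986). The correlation is a description over 9 libraries that share 3 groups. Arpc5l averaged 5.57 FPKM in PBS, 5.53 in RANKL and 12.6 in RANKL + Vit D+K, and Soat2, a cholesterol-esterifying enzyme, 0.198, 0.220 and 8.21. Each of the 10 is part of the mean it is compared with, and among them r ran from 0.614 for Ddit4 to 0.996 for Trib3.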

How the data were processed

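RNA selected on oligo(dT) beads was sequenced from 9 BMDM libraries. The authors deposited 1 table with whole-number counts per gene, not normalized, and FPKM values, which the authors had scaled for length and library size. The submitters' processing notes name cutadapt 1.9, HISAT2 2.0.4, StringTie 1.3.4d and edgeR. They name the human build hg38, whereas the samples and gene identifiers are mouse and the coordinates of the table are those of GRCm38. Strand use and the handling of multiply mapped reads are not given in the sources used here. Every column was matched to a sample.

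Testing used edgeR 4.0.16 under R 4.3.3 (filterByExpr, TMM, quasi-likelihood test on all 9 libraries, Benjamini-Hochberg adjustment, threshold 0.05). The SE is the log2 fold change divided by the square root of F. DESeq2 1.42.0, limma 3.58.1 on log2(FPKM + 1) or log2(FPKM + 0.1), median-of-ratios size factors, no filter, only the groups compared, a replicate block and each library left out were alternatives. The code was tested on simulated data. With 3 libraries in each group the smallest two-sided p of an exact permutation test is 0.1.

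The members and the gene lists were chosen with earlier results of these data known. Named were all members, up to 4 list genes per direction with the largest called, non-overlapping change between RANKL + Vit D+K and RANKL, up to 2 per list called between RANKL and PBS, 3 treatment checks and 6 genes of like profile, 1 of which is not reported here. Hspa5, Lyz2, Cd68, the tRNA synthetases, Fos, Psat1, Slc3a2, Cebpa between RANKL and PBS, the list genes named for a promoter element and the list genes that did not pass were named after their values were seen. Same-numbered PBS and RANKL libraries deviated together (r = 0.345, 0.448 and 0.305), against -0.341 to 0.0903 for libraries of unlike number. For RANKL and RANKL + Vit D+K the values were 0.077, 0.151 and 0.216, against -0.176 to 0.0503. The labels give replicate numbers but state no pairing, and the main model held no replicate block.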

Additional observations from a re-analysis of the deposited data

How the results depend on the processing

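In RANKL + Vit D+K against RANKL, and against PBS, the count of the 10 genes called higher was 9 under each of the 8 alternatives and 9 to 10 with 1 library left out, Ddit4 being the gene added without vitamin library 3. All 10 kept their direction in both comparisons under all these settings. In RANKL against PBS the count of 1 became 2 with DESeq2 (Trib3 and Gdf15), 4 with only the 2 groups compared, 0 with no filter on low counts, 0 with limma on log2(FPKM + 1) and 0 with limma on log2(FPKM + 0.1) without a filter, and ran from 0 to 5 with 1 library left out; the cause was not tested. With the replicate block it stayed at 1, Trib3 at -1.29 (edgeR, Benjamini-Hochberg adjusted p = 0.0491), and the block changed no call among the 10 genes. Genes near 0 in this comparison changed sign: Nupr1 to -0.0133 with the replicate block, and from -0.33 (without RANKL replicate 3) to 0.21 with 1 library left out, being negative also without PBS replicate 2 (-0.12), and Ddit4 from -0.58 to 0.24 (without RANKL replicate 1), being positive also without PBS replicate 3 (0.22). For the lists in RANKL + Vit D+K against RANKL, the 10 called eIF2 genes became 6 with only the 2 groups compared and 5 (without RANKL replicate 1) to 14 (without vitamin library 2) with 1 library left out, and the 8 called p53 targets became 4 (without RANKL replicate 1) to 8. Limma on log2(FPKM + 0.1) shifted the median of all genes in this comparison from -0.04 to -0.16 and the higher share of calls from 48.8% to 36.5%. Chac1 and Ddit4 had the lowest counts, a mean of 68 and 90.7 per PBS library, and the largest SEs of the 10 genes in RANKL against PBS, 0.74 and 0.67.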
